A study of Mus musculus with 36 samples.

Results

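A set of 10 genes of the NF-kB pathway were read in small intestine of wild type mice (WT) and of knockout mice (KO) without the long noncoding RNA lnc13. They are the inhibitor genes Nfkbia, Nfkbiz and Nfkbie, the feedback genes Tnfaip3, Tnip1 and Birc3, the subunit genes Nfkb1, Nfkb2 and Relb, and the cytokine gene Tnf. They were chosen by name, and all 10 were found among 27179 Entrez genes of the tissue and cell preparation files and among 78275 Ensembl genes of the CD8 tables. Whole tissue, preparations of lamina propria lymphocytes (LPL) and preparations of intraepithelial lymphocytes (IEL) each gave 2 libraries of lnc13-WT-DQ8 and 2 of lnc13-KO-DQ8 mice, all challenged with gluten. DQ8 is a human antigen-presenting allele linked to coeliac disease, which WT and KO mice of these sets shared. CD8 IELs, the T cells that lie between gut epithelial cells, gave 3 WT and 3 KO libraries without stimulation (unstim). They gave 3 and 3 more after 48 h of culture with IL-15, a cytokine that activates them, and the labels of neither CD8 set name DQ8. Of the 36 samples, 24 were analysed here. Age, sex, the way lnc13 was deleted and the animals behind each replicate were not given in the sources used here, so p-values describe the spread between libraries.

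NF-kB is a family of dimeric transcription factors. In resting cells IkB proteins hold the dimers in the cytoplasm, and signals from cytokine, antigen and pattern receptors lead to IkB breakdown, entry of the dimers into the nucleus and transcription. Several of the induced genes encode inhibitors that close the loop, so their transcripts are widely used as a reading of recent pathway activity, in gut epithelium as in immune cells.

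Coordinates are on mouse GRCm38, as RefSeq gives each gene's span. Nfkbia (gene ID 18035, chromosome 12, 55489409 to 55492647) encodes IkB-alpha, the best known induced inhibitor, and Nfkbie (18037, chromosome 17, 45555700 to 45563169) encodes IkB-epsilon. Nfkbiz (80859, chromosome 16, 55811375 to 55838954) encodes IkB-zeta, a nuclear IkB protein that also activates secondary target genes. Tnfaip3 (21929, chromosome 10, 19000910 to 19015410) encodes A20, a ubiquitin-editing enzyme that shuts off signalling. Its partner, the ubiquitin-binding protein ABIN1, is the product of Tnip1 (57783, chromosome 11, 54910787 to 54962956). Birc3 (11796, chromosome 9, 7847468 to 7873205) encodes the ubiquitin ligase cIAP2. Nfkb1 (18033, chromosome 3, 135584655 to 135691969) and Nfkb2 (18034, chromosome 19, 46300994 to 46312400) encode the p105 and p100 precursors of the subunits p50 and p52. Relb (19698, chromosome 7, 19606217 to 19629438) encodes RelB, the partner of p52 in the noncanonical pathway. Tnf (21926, chromosome 17, 35199367 to 35202007) encodes the cytokine that is both a product and an inducer of NF-kB.

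The promoters of 4 feedback genes are shown because they carry matches to the kappaB consensus, the site that NF-kB dimers bind, just upstream of the gene. Each stretch is the RefSeq sequence of GRCm38.p6 on the gene's own strand, 5′ to 3′, from the 130 bases before the start given in the promoter table, and capitals mark kappaB consensus matches on either strand. The last 16 bases before the table's start lie inside the annotated span of Tnip1 and are left out.
Nfkbia, chr12:55492648-55492777, minus strand: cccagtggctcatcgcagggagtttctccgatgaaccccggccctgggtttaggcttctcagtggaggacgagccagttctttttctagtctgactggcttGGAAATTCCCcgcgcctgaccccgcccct
Nfkbie, chr17:45555570-45555699, plus strand: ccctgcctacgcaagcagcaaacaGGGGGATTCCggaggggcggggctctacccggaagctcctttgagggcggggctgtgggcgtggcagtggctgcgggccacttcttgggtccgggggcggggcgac
Tnfaip3, chr10:19015411-19015540, minus strand: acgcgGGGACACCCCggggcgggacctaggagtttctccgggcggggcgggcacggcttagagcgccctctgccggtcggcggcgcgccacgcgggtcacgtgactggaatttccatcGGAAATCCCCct
Tnip1, chr11:54962957-54963070, minus strand: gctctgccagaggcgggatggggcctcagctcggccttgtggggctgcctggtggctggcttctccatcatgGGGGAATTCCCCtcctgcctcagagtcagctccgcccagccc
Nfkbia has 1 match, 29 to 20 bases before the start. Nfkbie has 1, at 106 to 97 bases. Tnfaip3 has a match that reads as the consensus on both strands at 125 to 116 bases and another at 12 to 3 bases. In Tnip1 4 overlapping matches fill 58 to 47 bases. Windows of 250 bases before the start were in the table for 7 of the 10 genes (not for Nfkbiz, Nfkb1 and Relb), and 5 of the 7 held the consensus, the fifth being Nfkb2, whose windows lie within its own span. Over all genes of the table, 8.2% of 27025 held it. The looser pattern GGGNNNNNCC, read on both strands and matched by every kappaB consensus site, was in 7 of the 7 and in 48.7% of all genes. A match is a description of letters and not a bound site.

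Reads in genes numbered 10186522 to 13620975 per library in the tissue, LPL and IEL sets, 16428511 to 23762128 in unstimulated CD8 cells and 14724754 to 26997371 in the IL-15 set. lnc13 itself was not analysed here, so its own RNA did not check the genotype labels. Levels are given as CPM (counts-per-million, the reads of a gene scaled to those of its library). The Y-linked gene Ddx3y reached 33.99 CPM in WT tissue replicate 2 and 38.67 in KO tissue replicate 2, and 0.1087 or less elsewhere among the 12. It was 149.2 CPM in WT IL-15 replicate 1 and at most 0.05898 in the other 5 of that set. In unstimulated cells 2 libraries of each genotype carried it. In every CD8 library 7 or 8 of 8 T cell markers reached 1 CPM, with sums of 7270 to 10340, and Csf1r of macrophages and Ms4a1 of B cells were at 1.042 or below. Markers of other cells were also seen there. Epithelial sums were 116.7 to 1042 CPM without stimulation and 162.8 to 273.3 with IL-15, where Epcam was 37.3 to 162.2 in every library, beside 67.75 in WT unstimulated replicate 3 and at most 0.1401 in the other 5. Endothelial sums reached 339.5, B cell sums 225.6 (1 of 6 genes at 1 CPM in each library) and macrophage sums 50.64. Plasma cell sums were 137.2 to 591.1 (1 of 4 genes at 1 CPM in each library) and mast cell sums 2.13 to 508.5. The part of all these cells in the CD8 values was not tested. IEL preparations had summed T cell markers of 137.6 to 499.2 CPM. LPL preparations had only 2.078 to 87.78, held less than tissue in 3 of 4 libraries, and carried the pancreatic lipase gene Pnlip at 873.1 to 1526 CPM. In KO LPL replicate 1, 0 of the 8 T cell markers reached 1 CPM, and its label, LPL, does not name T cells. Plasma cell markers of the LPL libraries summed to 755.1 to 5494 CPM, against 288.0 to 879.5 in tissue and 239.8 to 348.4 in IEL. WT LPL replicate 1 stood apart: its T cell, B cell, macrophage and dendritic cell sums were 87.78, 158.3, 110.1 and 41.56 CPM, against at most 11.0, 19.14, 46.01 and 6.062 in the other 3. In such bulk samples, fewer cells of a type and less RNA per cell cannot be told apart.

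Among the 3 preparations the genes did not share one pattern. Tnip1 and Relb were highest in whole tissue, Tnfaip3 was higher in IEL preparations than in tissue, and Tnf, Nfkb2 and Nfkbia tended to be highest in LPL preparations. Preparations were compared over both genotypes with edgeR, with p-values adjusted over all 14716 genes tested and a threshold of 0.05, and differences are log2. In LPL against tissue 3 of the 10 genes passed as higher and 3 as lower, beside 27.3% higher and 28% lower over all genes. IEL against tissue gave 1 higher and 2 lower (21.9% and 23.1%), and IEL against LPL 1 higher and 2 lower (11.5% and 7.92%). These shares were near the background, apart from the 2 genes lower in IEL than in LPL beside 7.92%. Libraries of the preparations did not overlap for 1 higher and 2 lower genes in each comparison, beside 26.5% and 25.1% of all genes in LPL against tissue, 22.9% and 22.9% in IEL against tissue and 17.3% and 15.1% in IEL against LPL. Isolation of cells and the makeup of the preparation cannot be told apart in these comparisons. Libraries with the Y-linked Ddx3y were found in tissue alone (WT replicate 2, 33.99 CPM, and KO replicate 2, 38.67 CPM). Among LPL and IEL libraries its highest value was 0.06179 CPM. Sex thus differed in part between tissue and the other preparations, and its part in the comparisons with tissue was not tested.

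**Figure D1:**
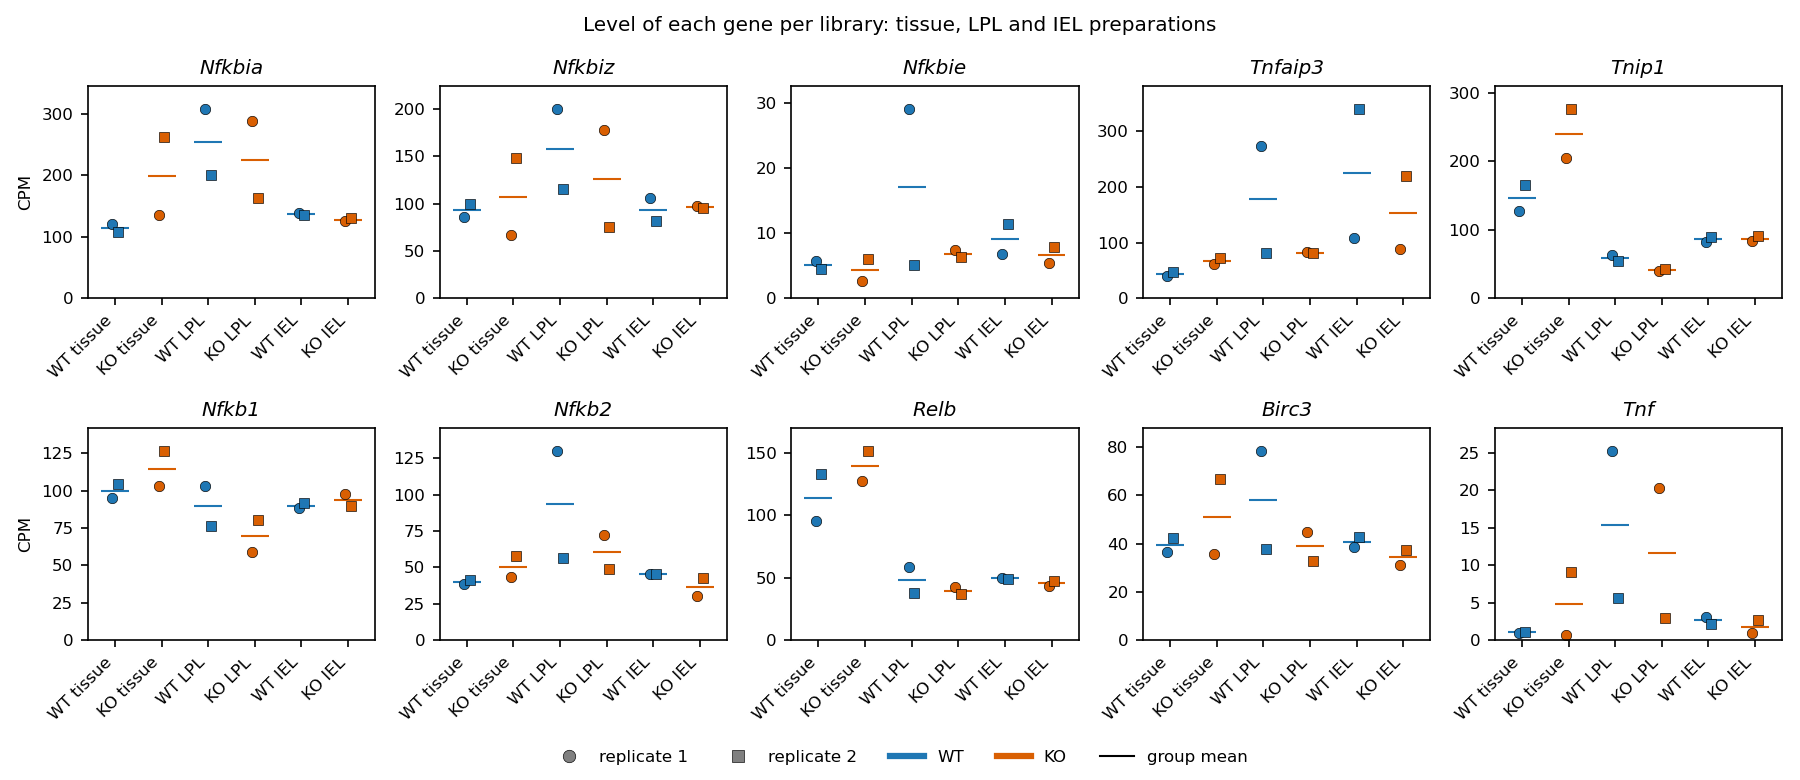
CPM (vertical axis from 0) of each gene in the 12 tissue, LPL and IEL libraries, with 1 point per library and a line at each group's mean. Tnip1 and Relb are high in all 4 tissue libraries, and WT LPL replicate 1 is the highest of the 4 LPL points for all 10 genes.

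Tnip1, for ABIN1, was 127.4 and 164.9 CPM in WT tissue and 204.3 and 277.0 in KO tissue. It was 62.87 and 54.77 in WT LPL, 40.1 and 42.82 in KO LPL, 82.5 and 89.65 in WT IEL and 83.27 and 91.07 in KO IEL. The 3 preparations did not overlap, in the order tissue, IEL, LPL. Against tissue it was lower by -1.92 in LPL (SE 0.15, adjusted p = 2.55e-05) and by -1.11 in IEL (SE 0.14, adjusted p = 0.000639), and it was 0.81 higher in IEL than in LPL (SE 0.14, adjusted p = 0.00538). Every alternative setting and every omission of a library left these 3 calls in place.

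Relb was 95.43 and 132.7 CPM in WT tissue and 127.5 and 151.6 in KO tissue. The LPL libraries held 58.29 and 37.57 in WT and 42.26 and 36.95 in KO, and IEL 50.03 and 49.03 in WT and 43.78 and 47.29 in KO. Every tissue library lay above every library of the other preparations, while LPL and IEL overlapped. The difference from tissue was -1.53 in LPL (SE 0.17, adjusted p = 0.000136) and -1.41 in IEL (SE 0.17, adjusted p = 0.000538), and both calls held under every setting. Summed epithelial markers were 20210 to 34390 CPM in tissue against 6571 to 8653 in LPL and 9614 to 11510 in IEL, and smooth muscle markers 645.0 to 2914 against 16.55 to 151.9 and 3.134 to 4.548. The part of these cells in the levels of Tnip1 and Relb was not tested.

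Tnfaip3, for A20, was 40.38 and 47.11 CPM in WT tissue, 61.2 and 73.28 in KO tissue, 274.7 and 81.7 in WT LPL and 83.13 and 80.63 in KO LPL. In IEL it was 108.3 and 340.8 in WT and 88.37 and 219.8 in KO. All tissue libraries lay below all others, and 3 libraries stood high: WT LPL replicate 1 and replicate 2 of both IEL groups. It was 1.78 higher in IEL than in tissue (SE 0.47, adjusted p = 0.0145), a call that held in every setting, with an adjusted p of up to 0.0495. LPL against tissue did not pass (1.16, SE 0.46, adjusted p = 0.0602). Within the IEL and LPL preparations T cell markers were high in the same 3 libraries. They summed to 499.2 and 344.0 CPM in the high IEL libraries of WT and KO and to 137.6 and 155.3 in the low ones, and to 87.78 in WT LPL replicate 1 against 2.078 to 11.0 in the other LPL libraries. Between preparations this order did not hold. Tissue libraries had marker sums of 23.35 to 51.75 CPM, above those other LPL libraries, and yet less Tnfaip3. The part of T cell content in the Tnfaip3 level was not tested.

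**Figure D2:**
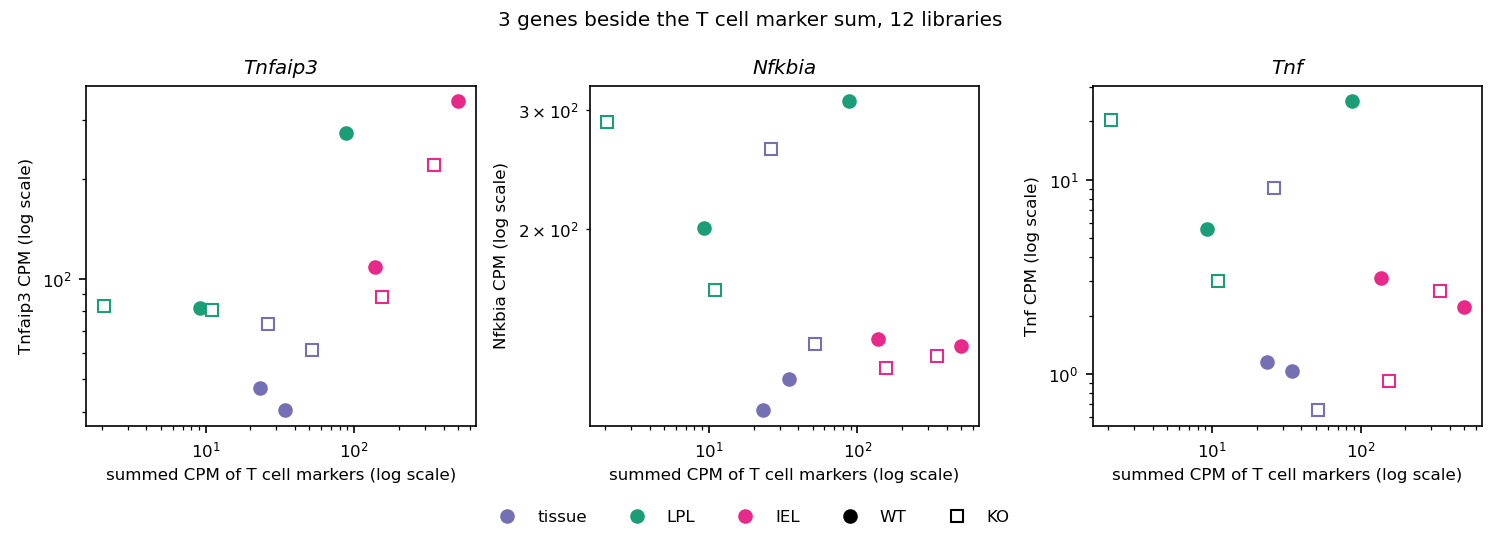
Levels of Tnfaip3, Nfkbia and Tnf (CPM, log scale) against the summed CPM of 8 T cell markers (log scale) in 12 libraries, coloured by preparation, with filled circles for WT and open squares for KO. The highest Tnfaip3 points have marker sums of 87.78 or more, while KO LPL replicate 1 has high Nfkbia and Tnf at the lowest marker sum, 2.078.

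Nfkbia was 120.4 and 108.5 CPM in WT tissue and 135.8 and 262.7 in KO tissue. It was 308.4 and 200.9 in WT LPL, 287.9 and 162.9 in KO LPL, 138.2 and 134.9 in WT IEL and 125.0 and 130.5 in KO IEL. All LPL libraries exceeded all IEL libraries, and only KO tissue replicate 2 reached the LPL range. It was 0.67 higher in LPL than in tissue (SE 0.25, adjusted p = 0.049) and 0.86 higher in LPL than in IEL, written as -0.86 for IEL (SE 0.25, adjusted p = 0.0441). Nfkb2 was 38.4 and 41.25 CPM in WT tissue, 43.16 and 57.95 in KO tissue, 130.2 and 56.65 in WT LPL, 72.22 and 48.93 in KO LPL, 45.4 and 45.82 in WT IEL and 30.71 and 42.59 in KO IEL. All LPL libraries again exceeded all IEL libraries. It differed by 0.74 in LPL from tissue (SE 0.26, adjusted p = 0.0352) and by -0.88 in IEL from LPL (SE 0.26, adjusted p = 0.0441).

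Tnf was low in most libraries. It was 1.035 and 1.155 CPM in WT tissue, 0.6523 and 9.1 in KO tissue, 25.28 and 5.581 in WT LPL, 20.35 and 3.028 in KO LPL, 3.122 and 2.201 in WT IEL and 0.9184 and 2.673 in KO IEL. Replicate 1 of both LPL groups and KO tissue replicate 2 were high. It was 2.53 higher in LPL than in tissue (SE 0.88, adjusted p = 0.0346), and IEL against LPL did not pass (-2.60, SE 0.87, adjusted p = 0.0667). The calls of Nfkbia, Nfkb2 and Tnf were fragile. Without WT LPL replicate 1 only 3 of the 10 genes passed in LPL against tissue, where the differences of Nfkbia, Nfkb2 and Tnf were 0.51, 0.40 and 1.81 (adjusted p = 0.136, 0.113 and 0.109), and 1 passed in IEL against LPL. Without KO LPL replicate 1 the Tnf difference from tissue was 1.63 (adjusted p = 0.14). With DESeq2 size factors Nfkbia and Nfkb2 had adjusted p = 0.0701 and 0.0508 against tissue. In KO LPL replicate 1, second of the 12 in Nfkbia and Tnf, T cell and macrophage sums were the lowest of the 4 LPL libraries, 2.078 and 23.73 CPM. Its plasma cell, B cell and dendritic cell sums, 2527, 19.14 and 6.062, were the second highest. Plasma cell sums were 5494 and 755.1 in WT LPL and 2527 and 897.3 in KO LPL, high in replicate 1 of each as Tnf was. The part of these cells in the 3 genes was not tested.

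Nfkb1 was nearly level over the preparations. It was 95.09 to 126.7 CPM in tissue, 59.15 to 102.8 in LPL and 88.47 to 97.55 in IEL, all of which overlapped. Its difference in LPL from tissue, -0.44 (SE 0.15, adjusted p = 0.0321), was lost without KO LPL replicate 1 (-0.27, adjusted p = 0.163) and in 3 other omissions. The other genes were not called in any of the 3 comparisons. Nfkbiz was 66.42 to 148.2 CPM in tissue, 74.88 to 200.0 in LPL and 81.34 to 105.8 in IEL, and Birc3 35.55 to 66.69, 32.81 to 78.48 and 31.22 to 42.62. Nfkbie was 2.718 to 6.107, 5.127 to 29.11 and 5.408 to 11.41, with 29.11 in WT LPL replicate 1 and 7.361 as the next LPL value.

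The wider pathway was read from a list of 52 further genes, of which 51 were tested. In LPL against tissue 13 were higher and 12 lower (over all genes 27.3% and 28%), in IEL against tissue 11 and 13 (21.9% and 23.1%), and in IEL against LPL 4 and 3 (11.5% and 7.92%), counts near the background. Map3k14, the kinase of the noncanonical pathway, was 2.40 higher in IEL than in tissue (adjusted p = 0.00034). The TNF receptor gene Tnfrsf1a was lower by -1.91 in LPL (adjusted p = 2.24e-05) and by -1.25 in IEL (adjusted p = 0.000355) than in tissue, and 0.66 higher in IEL than in LPL (adjusted p = 0.0106). The survival gene Bcl2l1 was lower by -2.18 in LPL than in tissue (adjusted p = 3.43e-05) and 0.75 higher in IEL than in LPL (adjusted p = 0.0166). Rela, for the p65 subunit, was lower by -0.87 in IEL than in LPL (adjusted p = 0.00751).

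For KO against WT, no member and no other gene passed the adjusted threshold in any of the 5 sets, a background of 0%. At an unadjusted p under 0.05 stood 463 genes in tissue, 448 in LPL and 120 in IEL, or 3.15%, 3.04% and 0.815% of those tested, 575 in unstimulated CD8 cells (3.34% of 17208) and 1841 in the IL-15 set (11.2% of 16371). Members among them were 1 each in tissue (Tnip1), LPL (Tnip1) and the IL-15 set (Nfkbiz), and 0 in the other 2 sets. Where a member's difference was within 2 SE of 0, only its levels are given here. The median difference of the 10 genes was 0.36 in tissue, -0.46 in LPL and -0.18 in IEL, beside -0.01, 0.01 and -0.02 over all genes.

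**Figure D3:**
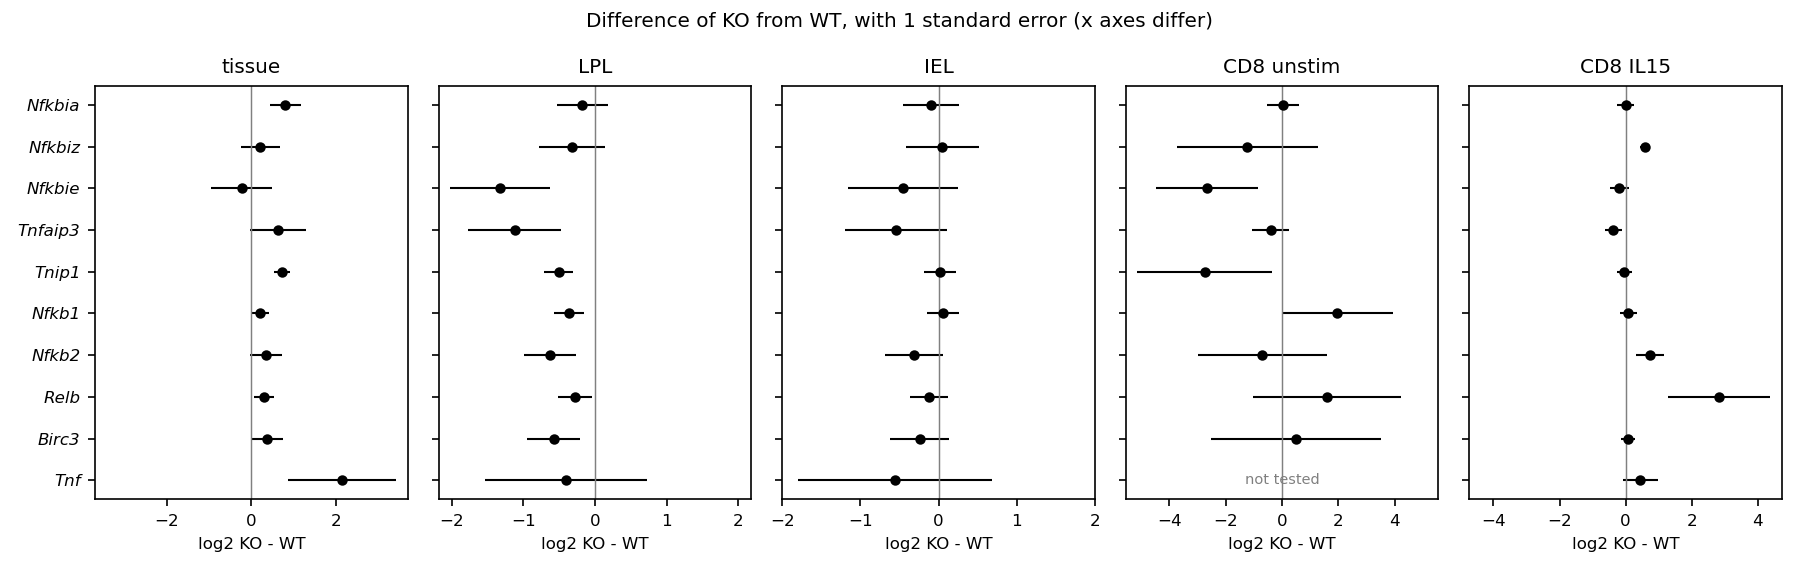
Log2 difference of KO from WT for each gene (points) with 1 SE (bars) in the 5 sets, each with its own horizontal scale and a line at 0. In LPL all 10 points lie left of 0 and in tissue 9 lie right of it, and the bars in unstimulated CD8 cells are the widest.

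In whole tissue no member passed between the genotypes, and Tnip1 and Nfkbia had the smallest unadjusted p. No KO library overlapped WT for 4 of the 10 genes, Nfkbia, Tnfaip3, Tnip1 and Nfkb2, all higher in KO, beside 13.2% of all genes higher and 12.3% lower. Tnip1, with 127.4 and 164.9 CPM in WT against 204.3 and 277.0 in KO, differed by 0.72 (SE 0.20, unadjusted p = 0.00558, edgeR adjusted p = 1). Nfkbia, at 120.4 and 108.5 in WT and 135.8 and 262.7 in KO, differed by 0.80 (SE 0.36, unadjusted p = 0.0525, edgeR adjusted p = 1). Most of the Nfkbia difference lay in KO replicate 2, and it was 0.25 without that library. The same library had the top tissue values of Nfkbiz (148.2 CPM, others 66.42 to 99.9), Birc3 (66.69, others 35.55 to 42.4) and Tnf (9.1, others 0.6523 to 1.155). In the other KO library Tnf, at 0.6523 CPM, lay below both WT libraries. Differences above 0 numbered 9 of 10, and 6 of 10 with a median of 0.09 without KO replicate 2. Summed epithelial markers had the same order as Tnip1 over the 4 libraries, 20210 and 29340 CPM in WT and 31770 and 34390 in KO, and their part in the Tnip1 difference was not tested. Replicate 2 of each genotype carried Ddx3y, and the part of sex in these values was not tested. Summed neutrophil markers were 8.382 CPM in KO replicate 2 against 0.5177 to 1.155 in the other tissue libraries. The part of neutrophils in its values was not tested.

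In LPL preparations all 10 differences were below 0, and 1 library decided this. WT replicate 1 had Tnfaip3 at 274.7 CPM against 80.63 to 83.13 in the other 3, Nfkb2 at 130.2 against 48.93 to 72.22, Birc3 at 78.48 against 32.81 to 45.03 and Nfkbie at 29.11 against 5.127 to 7.361. Without it, 8 of 10 differences were above 0 and the median was 0.08, and without KO replicate 2, 3 of 10 were above 0. This was the library with the high immune cell marker sums, and the part of those cells in its values was not tested. Only Tnip1 separated the genotypes, with 62.87 and 54.77 CPM in WT and 40.1 and 42.82 in KO, beside 8.62% of all genes lower and 9.89% higher without overlap. It differed by -0.50 (SE 0.20, unadjusted p = 0.0328, edgeR adjusted p = 1), and by -0.61 to -0.40 when each library was left out. For Nfkbia, Nfkbiz and Tnf the replicate numbers differed more than the genotypes, and within each number KO was below WT. Both replicate 1 libraries had more Tnf, 25.28 CPM in WT and 20.35 in KO, than the replicate 2 libraries, at 5.581 and 3.028. Nfkbiz was 200.0 and 177.4 in the former and 115.1 and 74.88 in the latter, and Nfkbia 308.4 and 287.9 and then 200.9 and 162.9.

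In IEL preparations no member passed between the genotypes. Nfkbia, Nfkb2, Relb and Birc3 were lower in KO without overlap, 4 of 10 beside 12.3% of all genes, and none was higher (14.8%). These differences were small. Nfkbia was 138.2 and 134.9 CPM in WT and 125.0 and 130.5 in KO, and Relb 50.03 and 49.03 against 43.78 and 47.29. Nfkb2 was 45.4 and 45.82 against 30.71 and 42.59, and Birc3 38.44 and 42.62 against 31.22 and 37.42. None of the 10 had a difference beyond 2 SE. Tnfaip3, at 108.3 and 340.8 CPM in WT and 88.37 and 219.8 in KO, was spread more widely. So were Tnf, at 3.122 and 2.201 against 0.9184 and 2.673, and Nfkbie, at 6.867 and 11.41 against 5.408 and 7.927. All of these overlapped, and differences in them were not resolved. Among members with a mean of at least 5 CPM the spread was smallest in this preparation, where the median SD of log2 levels within a group was 0.146, beside 0.276 in tissue and 0.61 in LPL (0.181, 0.263 and 0.211 over all genes).

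The KO effects were also compared between preparations by interaction terms. Tnip1, higher in KO tissue and lower in KO LPL, differed between these by -1.22 (SE 0.28, unadjusted p = 0.00186) and between IEL and tissue by -0.70 (SE 0.28, unadjusted p = 0.0342). Neither passed (edgeR adjusted p = 1 for both), and no gene of 14716 passed in any of the 3 interaction tests (0%), with 1.96%, 0.836% and 0.761% of genes at an unadjusted p under 0.05 in LPL against tissue, IEL against tissue and IEL against LPL. Leaving out each library gave -1.34 to -0.96 for Tnip1 between LPL and tissue. The 10 members had a median of -0.97 there, beside -0.02 for all genes, and of -0.33 without WT LPL replicate 1. None of the 52 further pathway genes was called for genotype in any set, and 51 were tested in the 3 preparations, 41 in unstimulated and 46 in IL-15 CD8 cells.

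In CD8 IELs the IL-15 set differed from the unstimulated set in Tnf and Nfkbie, which were higher in every cultured library, and in Tnfaip3, which was lower in every one. The deposited values are normalised counts, and the 2 tables were normalised apart, so levels across them are given as CPM of the recovered reads, with no test. Tnf had 0 reads in all 6 unstimulated libraries, where 3 reads, taken as the limit for a count of 0, come to 0.1263 to 0.1826 CPM. In the IL-15 set it was 5.721 to 23.22 CPM, 31.3-fold higher from the lowest of these to the highest of those limits. The limits cover counting error only and not the wide spread between unstimulated libraries, so this fold is not a firm minimum. Nfkbie was 0 to 10.27 (median 0.367) without stimulation and 32.08 to 62.29 (median 43.4) with IL-15. Tnfaip3 was 108.0 to 470.5 (median 248) without stimulation and 34.69 to 64.99 (median 52.1) with IL-15. The sets did not overlap for 2 genes that were higher and 1 that was lower, beside 12.7% and 1.98% of 13477 genes with a mean of 1 CPM or more.

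**Figure D4:**
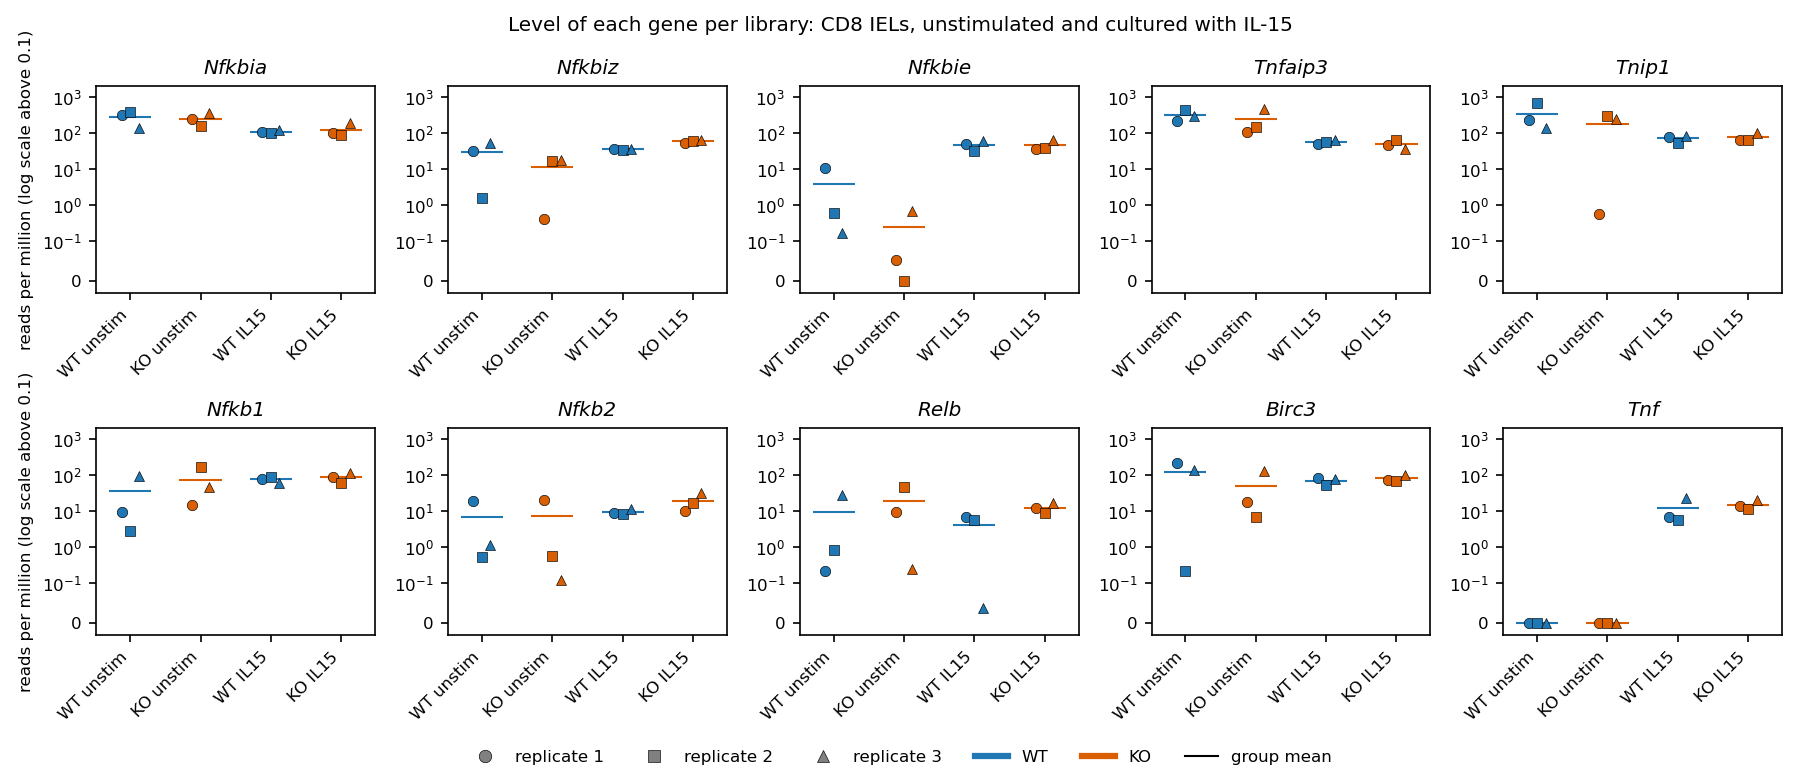
CPM (log scale above 0.1, linear below, so that 0 can be shown) of each gene in the 12 CD8 IEL libraries, with 1 point per library and a line at each group's mean. Unstimulated libraries of a group are spread over orders of magnitude for most genes, while IL-15 libraries lie close together apart from Relb in WT replicate 3.

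The other 7 genes overlapped between the sets, and for 5 of them the unstimulated libraries spanned 57-fold or more and the IL-15 libraries 3.95-fold or less. Tnip1 was 0.5677 to 663.0 CPM without stimulation and 53.26 to 99.19 with IL-15, and Birc3 0.2083 to 218.0 and 50.48 to 97.55. Nfkb1 was 2.813 to 160.3 and 60.08 to 114.2, Nfkb2 0.1217 to 20.39 and 8.021 to 31.68, and Nfkbiz 0.4129 to 52.36 and 34.32 to 64.45. Nfkbia, 139.7 to 388.4 and 87.06 to 183.1, had its median at 277 and at 100.3. Relb was spread over 0.2104 to 44.97 without stimulation. With IL-15 it was 5.603 to 16.41, apart from 0.03704 (1 read) in WT replicate 3. Over all genes the unstimulated libraries also varied more: 6608 to 8844 genes reached 1 CPM without stimulation and 12306 to 13210 with IL-15, and the median SD of log2 values within a group was 2.48 over all genes and 3.00 over members, against 0.421 and 0.385. Culture with IL-15, the table and this difference in the number of genes seen cannot be told apart. Ddx3y was 69.69 and 187.8 CPM in unstimulated WT libraries, 126.5 and 182.9 in unstimulated KO libraries and 149.2 in WT IL-15 replicate 1. It was at most 0.05898 in the other CD8 libraries. The part of sex in the difference between the sets was not tested.

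Without stimulation, KO and WT did not separate for any of the 9 members tested (Tnf was at 0), beside 3.81% of genes higher and 4.71% lower without overlap. Normalised counts of Tnfaip3 were 4285, 6485 and 5400 in WT replicates 1, 2 and 3 and 2129, 2963 and 10290 in KO. Nfkbia was 6611, 5827 and 2607 in WT and 4628, 2981 and 7838 in KO. By these counts KO replicate 3 was the highest library for both genes, and the lowest was KO replicate 1 for Tnfaip3 and WT replicate 3 for Nfkbia. In CPM, WT replicate 2 was the highest for Nfkbia, at 388.4 against 358.4 in KO replicate 3. Birc3 showed how single libraries fell out, with 4505, 3.125 and 2464 in WT and 349, 132.9 and 2766 in KO, and so did Tnip1, at 4615, 9947 and 2504 in WT and 11.19, 5981 and 5305 in KO. Nfkb1 was 194.8, 42.19 and 1759 against 281.8, 3191 and 974.5, Nfkbiz 646.2, 22.66 and 977.3 against 8.14, 332.7 and 383.4. The low library was not the same one from gene to gene. Nfkb2, Relb and Nfkbie each ranged from at most 4.348 to at least 212.2 over the 6 libraries. The SE of the difference was over 1 log2 unit for 7 of the 9, so differences of that size were not detectable for them.

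With IL-15 the libraries were tight enough to compare, and Nfkbiz, for the nuclear regulator IkB-zeta, was the member with a difference beyond 2 SE. Its normalised counts were 664.1, 649.7 and 652.0 in WT and 877.9, 1009 and 1061 in KO, with no overlap. The difference was 0.58 on the log2(value + 1) scale (SE 0.14, unadjusted p = 0.00427), and it did not pass over all genes (limma adjusted p = 0.404). It lay between 0.52 and 0.66 when each library was left out, the Ddx3y-carrying WT replicate 1 included. DESeq2 on the recovered reads called it (0.59, adjusted p = 0.0272) and edgeR on the same reads did not (adjusted p = 0.432). DESeq2 called 144 genes in this set and 434 in the unstimulated one, where limma called 0 in each. Relb was the only other member without overlap, 2 of 10 higher in KO beside 11.1% of genes higher and 9.16% lower, with 121.5, 106 and 0.6633 in WT and 200.7, 146.6 and 270.1 in KO. The value of 0.6633 is 1 read, and a fold from this group is not given.

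The other members overlapped between the genotypes after IL-15. Nfkb2 was 158.9, 151.8 and 206.3 in WT and 163.5, 278.1 and 521.5 in KO, and KO replicate 3 also had the highest Nfkbia, 3014 against 1492 to 2123 in the other 5. Tnf was 127.1, 108.3 and 415.9 in WT and 237.8, 190.8 and 324.3 in KO. Tnfaip3 was 933.2, 1018 and 1145 in WT and 799.6, 1113 and 571.1 in KO, so KO replicate 3, highest in Nfkbia, was lowest in this gene. Nfkbie was 607.2 to 1039 in WT and 612 to 1025 in KO, Tnip1 1008 to 1459 and 1053 to 1633, Birc3 955.5 to 1479 and 1165 to 1606, and Nfkb1 1076 to 1638 and 1040 to 1880. The median difference of the 10 was 0.09, beside 0.08 over all genes.

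The members moved together only in part. Over the 12 tissue, LPL and IEL libraries the 45 pairs had a median Pearson r of 0.346 and 27 were above 0, in CD8 cells with IL-15 the median was 0.374 (32 of 45) and without stimulation 0.063 (20 of 36). Birc3 was most like the members' mean in the preparations (r = 0.992) and Tnip1 least (0.154). That mean includes the gene itself, which raises these values. Predicted genes and immunoglobulin and T cell receptor genes were left out of the search for other genes like the members. Of the 10195 genes compared, those most like the mean level of the members over the 12 libraries were Ly6d (r = 0.859), Gng10 (0.851), Tank (0.844), Rap1b (0.844) and Tnfaip2 (0.843). In unstimulated CD8 cells they were Utp15 (0.997), Zfyve27 (0.988), Pja1 (0.984), Pikfyve (0.981) and Usp38 (0.975), of 8222 compared. With IL-15 they were Gstcd (0.993), Cox18 (0.991), Cfl1 (0.99), Hsdl1 (0.989) and Btf3 (0.988), of 8868 compared, each over 6 libraries. The highest values among so many genes over so few libraries are large by selection alone. The libraries also share their preparation and depth, so these values are a description.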

How the data were processed

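Poly(A) RNA was sequenced from 24 libraries in 10 groups, taken from the sample titles. The tissue, LPL and IEL files were deposited as raw counts for each Entrez gene, and per the file headers the aligner was HISAT2. For these files TopHat, DESeq, featureCounts and mm10 are listed in the submitters' processing notes, so the aligner is recorded differently in each source. Values of the CD8 tables, as deposited, are a normalised signal for each Ensembl gene. A single factor per library turned 100% of them into whole reads within 0.01, as division of counts by size factors gives, and these recovered reads served for depth and CPM. STAR, DESeq2, featureCounts and mm39 are among the names listed for them in the same notes, without roles. CD8ab and RNA antisense purification samples were not analysed here.

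Symbols were found for 25275 of 27179 Entrez and 51486 of 78275 Ensembl IDs (RefSeq, GRCm38.p6). The members and lists were chosen with earlier results of these data known, and all 10 members are named, as are up to 3 further pathway genes with the smallest p per comparison, apart from a gene that is not reported here. Tissue, LPL and IEL counts were fitted together as 6 groups with edgeR 4.0.16 (quasi-likelihood, TMM, filterByExpr). CPM used TMM factors. The CD8 tables were each tested with limma 3.58.1 (limma-trend, on log2(value + 1)), leaving out genes whose mean was under 5. P-values are two-sided with Benjamini-Hochberg adjustment over all genes at 0.05. DESeq2 1.42.0, other factors, filters and pseudocounts, a replicate block and leaving out each library were alternatives. Likeness was Pearson correlation of log2(CPM + 1) with the members' mean standardised level, among genes with a mean of at least 5 CPM. Genes without a symbol, predicted genes, and immunoglobulin and T cell receptor genes were left out of it. The fits were tested on simulated data. R 4.3.3, Python 3.11.15 and pandas 2.3.3 were used. Counts without molecular identifiers give limits for counting error only, and depth bounded the values only for genes near 1 CPM.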

Additional observations from a re-analysis of the deposited data

How the results depend on the processing

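No member passed for KO against WT under any alternative, except Nfkbiz in the IL-15 set by DESeq2 on recovered reads (1 member). Counts over all genes for KO against WT, 0 in each set as reported, became 6 in tissue, 1 in LPL, 1 in IEL, 434 in unstimulated CD8 cells and 144 in the IL-15 set by DESeq2's Wald test, and 3 in the IL-15 set with no filter on low values. Leaving out each library gave 0 to 3 in tissue, 0 to 4 in LPL and 0 to 1 in the IL-15 set. In LPL against tissue 6 members were called, and leaving out each library gave 2 to 7. The 3 of IEL against LPL became 1 to 4, and the 2856 genes called there 1267 to 2561. Fits without 1 of 2 libraries assume that the one left varies like the others.

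Replicate numbers could not be shown to pair libraries. In replicate 2, Ddx3y was 33.99 CPM in WT tissue and 38.67 in KO tissue, and at most 0.06179 in LPL and IEL. Replicate 2 of tissue thus cannot share its animals with replicate 2 of LPL or IEL. The replicate block nevertheless gave these libraries 1 shared term. Deviations of same-numbered libraries had correlations of 0.682 (tissue), 0.382 (LPL) and 0.574 (IEL), but the crossed pairing of 2 and 2 must give the opposite sign, and in CD8 cells the 6 values lay between -0.057 and 0.001. With the replicate block 3 members were called in LPL against tissue and 1 in IEL against LPL, and it changed no other count of members past 1.5 times. No member difference beyond 2 SE changed sign in any setting: of 264 values 214 kept their side of the threshold, 41 lost it and 9 gained it. The cause of these changes was not tested, and leaving out a library changes both how many libraries are fitted and which ones.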
